A study of Rattus norvegicus with 6 samples.

Results

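The genes described here encode the conjugating enzymes of phase II drug and hormone metabolism. They are the UDP-glucuronosyltransferases (UGT1A, UGT2), the cytosolic sulfotransferases (SULT), the cytosolic glutathione S-transferases except Gstp1 (GST), the membrane-bound glutathione S-transferases (MGST) and the arylamine N-acetyltransferases (NAT). They were chosen by gene symbol, and 40 of 16209 rows of the expression table matched. A member also had to reach 1 normalized read in no fewer than 3 libraries, which 39 did and Sult4a1 did not. Of the 39, 35 reached it in all 6 libraries, and Ugt2b7, Sult1d1, Sult6b1 and Nat3 in 3 to 5. The members were 1 UGT1A, 5 UGT2, 9 SULT, 5 GST alpha, 6 GST mu, 7 other GST (kappa, omega, theta and zeta), 3 MGST and 3 NAT genes.

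The study sequenced RNA from liver tissue of rats (Rattus norvegicus) with liver fibrosis. It compared 3 samples from rats given vehicle with 3 from rats that received the plant biflavone ginkgetin (10 mg/kg/day). The vehicle columns of the table carry letters that the labels do not, and were assigned because vehicle is the only other group, so every direction rests on that. All 6 samples come from fibrotic livers, so no healthy liver enters the comparison. The way fibrosis was induced, the length of treatment, and the rats' strain, sex and age were not given in the sources used here, nor was it said that each sample was a separate animal. P-values therefore measure the spread between these samples, which may be technical. Values are normalized reads, that is, reads per gene divided by 1 factor per library. They are not divided by gene length, so levels are compared between groups and not between genes. A log2 fold change is the difference of the group means of log2(value + 1), ginkgetin minus vehicle, and it understates differences of genes with few reads. A higher or lower mean below refers to these log2 means.

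Phase II enzymes join a polar group to a drug, hormone, bile pigment or oxidized lipid, so that the product dissolves in water and can be exported into bile or blood. Each family draws on its own donor: UDP-glucuronic acid for UGTs in the endoplasmic reticulum, the activated sulfate PAPS for SULTs in the cytosol, glutathione for GSTs, and acetyl-CoA for NATs. Hepatocytes carry most of this capacity in the liver, and bile duct cells and other cells have their own isoforms.

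The libraries held 13372367 to 14933853 reads assigned to genes. The deposited scaling was less even. In it 1 read counted as 1.19, 0.832 and 0.614 normalized reads across vehicle replicates 1 to 3, against 1.11, 1.16 and 1.24 across ginkgetin replicates 1 to 3. In its cell type markers, vehicle replicate 3 lay far from the rest. All 22 hepatocyte markers were lowest there, and their median, in log2 units centred on the 6 libraries, was 0.40, -0.040 and -2.00 across vehicle replicates 1 to 3, against 0.33, 0.61 and 0.72 across ginkgetin replicates 1 to 3. All 22 had higher means with ginkgetin, with a median log2 fold change of 1.16, and of 0.40 without that library. The summed normalized reads of 12 cholangiocyte markers ranged from 3699 to 23822 with vehicle and from 1101 to 1736 with ginkgetin. The sums of 13 stellate cell and myofibroblast markers ranged from 11960.2 to 132631 and from 4298 to 7303, those of 11 macrophage markers from 6077 to 55469.9 and from 5577 to 11464, and those of 9 endothelial markers from 4697 to 7653 and from 4291 to 6163. The highest vehicle value of each of these 4 sums was that of vehicle replicate 3. Few genes made up much of some sums there. Spp1 alone gave 18034 of the cholangiocyte sum, and Col3a1 and Col1a1 gave 76088 and 32623 of the stellate cell sum. Lyz2 and Gpnmb gave 28708 and 16728 of the macrophage sum. With all 6 libraries, 5 macrophage markers had a higher mean with ginkgetin and 6 a lower one. For endothelial markers the numbers were 5 and 4, for stellate cell and myofibroblast markers 1 and 12, and for cholangiocyte markers 0 and 12. At the low end, Trem2 was at 0 in ginkgetin replicates 2 and 3, and Postn in ginkgetin replicates 1 and 3. At the other end, the macrophage markers Marco and Clec4f had log2 fold changes of 2.63 and 1.97. The part of these markers in the results below was not tested beyond the values given, and in bulk tissue fewer cells of a type and less RNA per cell cannot be told apart.

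Most conjugation genes had a higher mean in the ginkgetin livers. This held for 36 of the 39 members (92.3%), where 48.6% of the 14639 genes tested had a higher mean. Of the 36, Ugt2a1 and Sult5a1 were lower when normalized reads were averaged without logs. These averages were 1048 with ginkgetin against 1090 with vehicle for Ugt2a1, and 13.3 against 16.6 for Sult5a1. The median log2 fold change over the members was 0.77, where that over all genes tested was -0.022. With equal library totals in place of the deposited scaling, 25 were higher and 14 lower (21.4% of all genes higher), with a median of 0.31 against -0.53 for all genes. With the deposited scaling the exceptions, with lower means, were the glutathione S-transferases Gstm3, Gsta3 and Gstt3. No member passed a Benjamini-Hochberg threshold of 0.05 in limma, where 0.0137% of all genes tested did. At an unadjusted p of 0.05 there were 6 members on the higher side (15.4%, against 7.0% of all genes) and 1 on the lower side (2.56%, against 13.2%). The values of the groups did not overlap in 7 members that were higher (17.9%, against 11.4% of all genes) and in 1 that was lower (2.56%, against 16.1%). These were Ugt2b10, Ugt2b35, Sult1c2, Sult1c2a, Gstt2, Mgst3 and Nat2 on the higher side, and Gstm3 on the lower. On the reads recovered from the values, edgeR called 0 members (0.0% of all genes), with 3 on the higher side (5.39% of all genes) and 1 on the lower side (14.5%) below an unadjusted 0.05. DESeq2 called 2, Sult1c2 and Gstm3 (9.62% of the genes it gave an adjusted p). Both tools put 34 members higher and 5 lower, with Ugt2a1 and Sult5a1 among the lower. Of all 14639 genes, edgeR put 7055 higher and DESeq2 7099.

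Vehicle replicate 3 lay below each of the other 5 libraries in 29 of the 39 members (74.4%, against 29.0% of all genes tested). In 3 more, Ugt2b7, Sult1d1 and Nat3, it was at 0 together with another library. These ranks are of normalized reads, and 1 read counted least in vehicle replicate 3, as 0.614 normalized reads. The part of this factor in the ranks was not tested. Summed over the members, the normalized reads were 165616, 106414 and 37611 across vehicle replicates 1 to 3, against 145765, 152170.1 and 214119.7 across ginkgetin replicates 1 to 3. Vehicle replicate 1 lay inside the ginkgetin range, so the sums of the groups overlap. Without vehicle replicate 3, the median log2 fold change of the members was 0.26, and 29 members had a higher mean (49.0% of all genes) and 10 a lower one. Those that turned sign were Ugt2a1, Ugt2b7, Sult1d1, Sult2b1, Gsta2, Gstm4 and Gstk1. The groups were then apart in 7 members on the higher side (14.5% of all genes) and 1 on the lower (19.3%). Members at an unadjusted p of 0.05 then numbered 5 higher and 1 lower (against 5.68% and 10.0% of all genes), and 0 passed the adjusted threshold (0.574% of all genes). Without vehicle replicate 1 the median was 1.08 and 3 members passed (against 4.75% of all genes): Gstm3, Sult1c2a and Sult1c3.

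**Figure D1:**
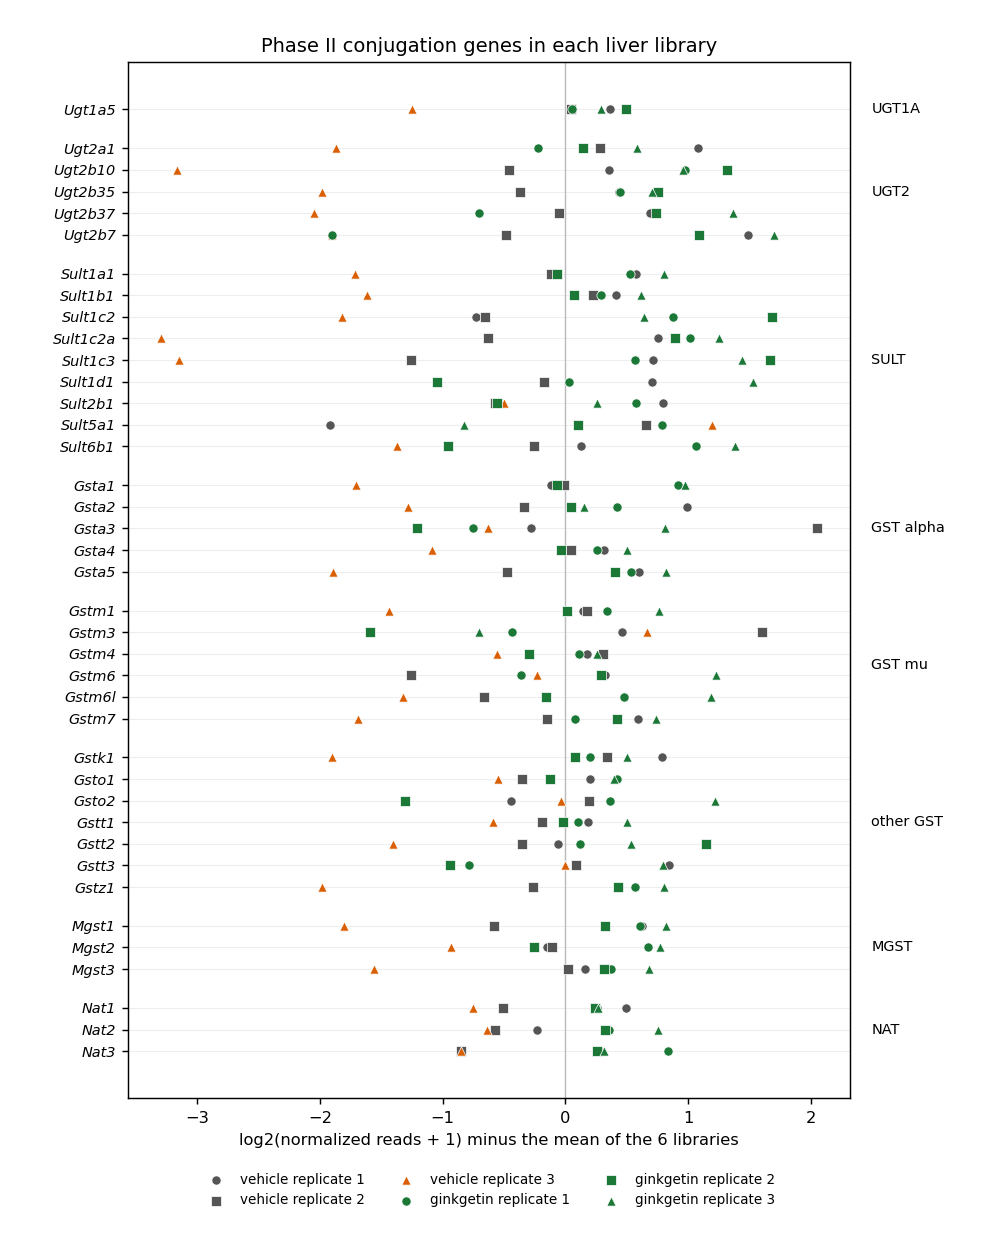
Each row is a member, grouped by family, and each point a library, as log2(normalized reads + 1) minus the member's mean over the 6 libraries. The orange triangles of vehicle replicate 3 lie alone at the left in 29 of 39 rows. The other vehicle libraries lie among the green ginkgetin points in some rows and outside them in others. Vehicle replicate 2, for example, lies below all ginkgetin points in Gsta5, Gstz1 and Mgst1.

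**Figure D2:**
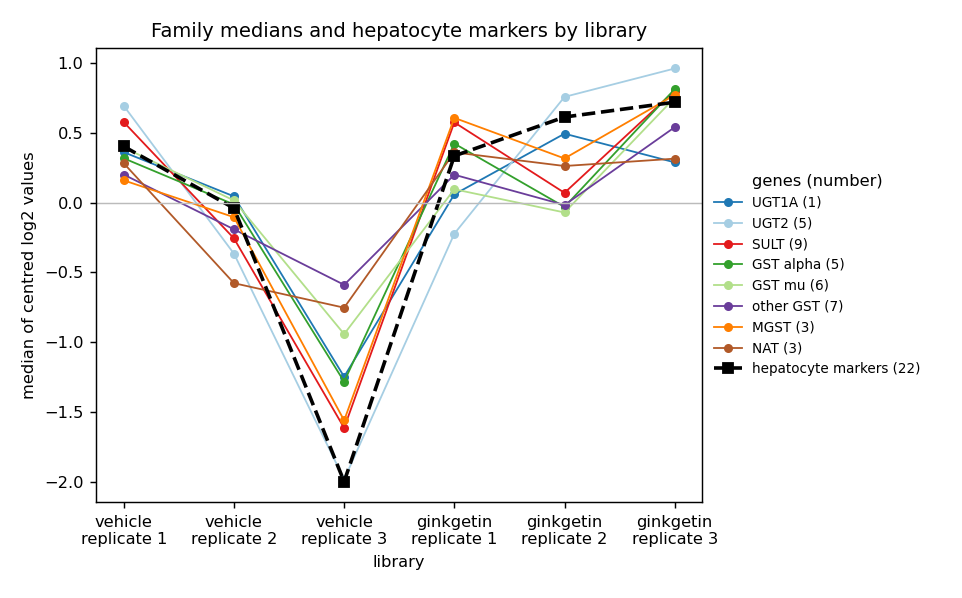
For each library the points give the median, over the genes of a family, of log2 values centred on the 6 libraries. The dashed line gives the same for 22 hepatocyte markers, and both reach their lowest point in vehicle replicate 3, at -2.00 for the markers and between -1.98 and -0.59 for the families.

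Glucuronidation is carried by the UGT genes. In the rat, the 2B genes lie side by side, and upstream sequences were at hand for Ugt2b10, Ugt2b35, Ugt2b37 and Ugt2b7. They are shown because 3 of them share a run of bases that Ugt2b10 has only in part. The lines give the 150 bases before each start (RefSeq, GRCr8, an assembly other than the build named in the submitters' processing notes). Capitals mark the shared run of 25 bases in Ugt2b35, Ugt2b37 and Ugt2b7, and in Ugt2b10 its longest run of bases in common with Ugt2b35, of 9. After these 9, Ugt2b10 reads ctttaac where the shared run reads TTTTAAC. The match thus breaks at the first of these bases and resumes to the end of the run.
Ugt2b10 (GRCr8 chr14:21462691-21462840, plus strand): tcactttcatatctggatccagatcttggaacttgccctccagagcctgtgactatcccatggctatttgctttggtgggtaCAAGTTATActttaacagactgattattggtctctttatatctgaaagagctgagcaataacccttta
Ugt2b35 (GRCr8 chr14:21208291-21208440, plus strand): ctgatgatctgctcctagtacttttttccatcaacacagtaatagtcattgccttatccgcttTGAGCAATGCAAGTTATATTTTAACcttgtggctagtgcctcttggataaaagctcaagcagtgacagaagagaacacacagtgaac
Ugt2b37 (GRCr8 chr14:21171986-21172135, plus strand): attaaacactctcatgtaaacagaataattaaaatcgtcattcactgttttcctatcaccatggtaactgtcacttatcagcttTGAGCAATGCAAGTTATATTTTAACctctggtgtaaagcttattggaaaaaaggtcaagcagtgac
Ugt2b7 (GRCr8 chr14:21251385-21251534, plus strand): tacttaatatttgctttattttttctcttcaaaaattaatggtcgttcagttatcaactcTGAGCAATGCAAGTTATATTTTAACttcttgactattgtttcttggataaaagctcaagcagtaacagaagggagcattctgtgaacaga

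The run of 25 bases, searched without mismatches on both strands over the 250 bases before each start, was found in 7 of 33469 promoter sequences. They belong to Ugt2b35, Ugt2b37, Ugt2b7, the related genes Ugt2b, Ugt2b15 and Ugt2b7l1, and the locus LOC134478834. Aligned over 250 bases, Ugt2b35, Ugt2b37 and Ugt2b7 had 62.0% to 68.4% identical bases in pairs, and Ugt2b10 had 53.6% to 56.4% with them. The match is a description of these letters and not of a binding site.

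The 5 UGT2 members all had higher log2 means with ginkgetin, and their median log2 fold change was 0.93, or 0.15 without vehicle replicate 3. Ugt2b10, a member of the subfamily that conjugates steroids, bile acids and fatty acids, had 1031, 585 and 89.00 normalized reads across vehicle replicates 1 to 3, against 1583, 2009 and 1564 across ginkgetin replicates 1 to 3. Every ginkgetin value lay above every vehicle value, and vehicle replicate 3 lay well below the other vehicle libraries (limma log2 fold change 2.17 ± 0.777 SE with an adjusted p of 0.184, and 1.14 without vehicle replicate 3). Ugt2b35, a member of the same subfamily, had 9129, 5234 and 1707 in the vehicle libraries, against 9198, 11392 and 10986 in the ginkgetin libraries. Its groups were also apart, but vehicle replicate 1 and ginkgetin replicate 1 were nearly level (limma log2 fold change 1.27 ± 0.624 SE with an adjusted p of 0.286, and 0.60 without vehicle replicate 3). Ugt2b37, with the most normalized reads of the UGT2 genes, had 32095, 19159 and 4815 in the vehicle libraries, against 12192, 33127 and 51235 in the ginkgetin libraries. Here the groups overlap widely, since ginkgetin replicate 1 lay below vehicle replicates 1 and 2 (limma log2 fold change 0.93 ± 0.87 SE with an adjusted p of 0.559, and 0.15 without vehicle replicate 3).

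The other UGT genes showed no separation of the groups. Ugt2a1, of the subfamily named for olfactory tissue, had 1918, 1104 and 249 in the vehicle libraries, against 778, 1004 and 1362 in the ginkgetin libraries, and its log2 fold change of 0.34 was -0.51 without vehicle replicate 3. Averaged without logs, its normalized reads were 1090 with vehicle and 1048 with ginkgetin. Ugt2b7 was near the limit of detection, at 0 to 11.1 normalized reads. Ugt1a5 was the single UGT1A row analysed here. UGT1A transcripts share their last exons, so its reads may include those of other UGT1A forms, among them the enzyme that conjugates bilirubin. It had 11643, 9352 and 3822 in the vehicle libraries, against 9444, 12763 and 11069 in the ginkgetin libraries, and apart from vehicle replicate 3 all libraries lay within the same range (limma log2 fold change 0.56 ± 0.536 SE with an adjusted p of 0.572, and 0.077 without vehicle replicate 3).

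Among the sulfotransferases, the 3 Sult1c genes had the largest limma differences. Their log2 fold changes were 2.11 to 2.45 on the log2(value + 1) scale. On recovered reads, edgeR put Sult6b1, with few reads, above Sult1c2a (1.52 against 1.35), as did DESeq2. SULT1C enzymes belong to the phenol sulfotransferases, and rodent forms sulfate N-hydroxyarylamines. Sult1c2 had 14.2, 14.97 and 6.14 normalized reads across vehicle replicates 1 to 3, against 45.3, 79.8 and 38.3 across ginkgetin replicates 1 to 3. These rest on 12, 18 and 10 reads in the vehicle libraries, against 41, 69 and 31 in the ginkgetin libraries. Every ginkgetin value lay above every vehicle value (limma log2 fold change 2.14 ± 0.544 SE with an adjusted p of 0.112, and 1.76 without vehicle replicate 3). DESeq2 gave an adjusted p of 0.00399, and the adjusted p of all alternatives ran from 0.00399 to 0.493.

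Sult1c3 had 1266, 322 and 85.9 in the vehicle libraries, against 1142, 2442 and 2093 in the ginkgetin libraries (limma log2 fold change 2.45 ± 0.841 SE with an adjusted p of 0.175, and 1.49 without vehicle replicate 3). Vehicle replicate 1 lay above ginkgetin replicate 1, so its groups overlap. Sult1c2a, described here after its values were seen, had 1082, 414 and 64.4 in the vehicle libraries, against 1299, 1189 and 1523 in the ginkgetin libraries (limma log2 fold change 2.11 ± 0.859 SE with an adjusted p of 0.226, and 0.99 without vehicle replicate 3). Its groups were apart, with vehicle replicate 1 close below the ginkgetin libraries and vehicle replicate 3 far below both. Both genes passed in limma without vehicle replicate 1, at adjusted p of 0.0274 for Sult1c3 and 0.0453 for Sult1c2a. The vehicle libraries of both genes spanned more than the difference between the groups. Sult1c genes are alike in sequence, and how reads shared between them were counted is not given in the sources used here.

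The main liver sulfotransferases differed less. Sult1a1, which sulfates simple phenols, had 10692, 6608 and 2183 in the vehicle libraries, against 10315, 6848 and 12497 in the ginkgetin libraries (limma log2 fold change 0.84 ± 0.632 SE with an adjusted p of 0.468, and 0.19 without vehicle replicate 3). Sult1b1, which sulfates thyroid hormone and other phenols, was at 0.65 and, without that library, at 0.0085. For both genes vehicle replicate 1 lay within the ginkgetin range. The remaining SULT members had a mean of under 50 normalized reads. Sult2b1, which sulfates cholesterol and other sterols, was at 0.18, Sult5a1 at 0.043, Sult6b1 at 0.999, and Sult1d1, which sulfates catecholamines, at 0.34. The groups overlapped in each of these 4. Sult4a1, which failed the filter, had reads in vehicle replicate 2 alone, at 2.50 normalized reads.

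**Figure D3:**
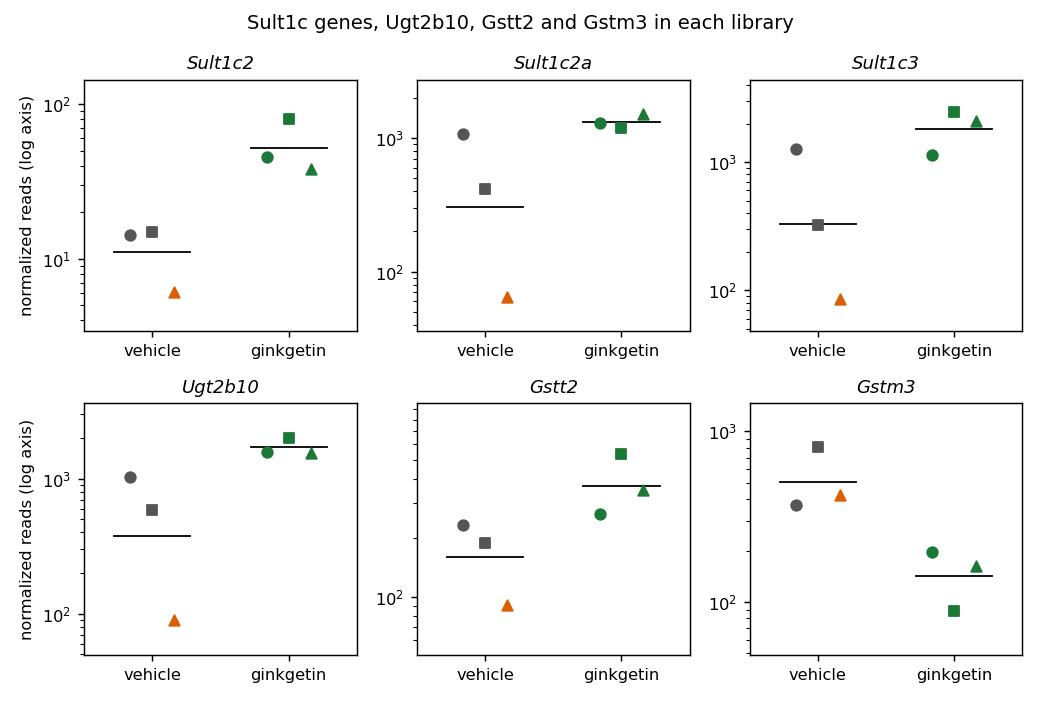
Each panel gives a member's normalized reads on a log axis in the 3 vehicle and 3 ginkgetin libraries, with circles for replicate 1, squares for replicate 2 and triangles for replicate 3, and orange for vehicle replicate 3. Black lines are the back-transformed group means of log2(value + 1). In Sult1c2a, Sult1c3 and Ugt2b10 the vehicle libraries spread widely, down to 64.4, 85.9 and 89.00, while in Sult1c2, Gstt2 and Gstm3 they spread less.

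Alpha-class glutathione S-transferases are abundant hepatocyte enzymes that conjugate electrophiles and reduce lipid peroxides. Of 5 members, 4 had a higher mean and Gsta3 a lower one, with a median log2 fold change of 0.48, and of 0.062 without vehicle replicate 3. Gsta1 had 6997, 7511 and 2329 in the vehicle libraries, against 14362, 7221 and 14934 in the ginkgetin libraries (limma log2 fold change 1.22 ± 0.591 SE with an adjusted p of 0.28, and 0.67 without vehicle replicate 3). Ginkgetin replicates 1 and 3 were the highest, and ginkgetin replicate 2 lay among the vehicle libraries. Gsta5 had 4230.3, 2013 and 753 in the vehicle libraries, against 4053, 3695 and 4917 in the ginkgetin libraries (limma log2 fold change 1.17 ± 0.586 SE with an adjusted p of 0.294, and 0.52 without vehicle replicate 3), where vehicle replicate 1 lay inside the ginkgetin range. Gsta4, which conjugates the lipid peroxidation product hydroxynonenal, was at 0.48 and Gsta2 at 0.42, with overlap in both. Without vehicle replicate 3 they were at 0.062 and -0.12.

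Gsta3 had 160.1, 807 and 125 in the vehicle libraries, against 115, 83.3 and 341 in the ginkgetin libraries. Vehicle replicate 2 was the highest library. The log2 fold change was -0.76 ± 0.761 SE in limma, with an adjusted p of 0.588, but 0.069 when vehicle replicate 2 was left out. Alpha-class symbols have moved between rat genes: the RefSeq table lists Gsta3 and Gsta5 as synonyms of Gsta1, Gsta5 as one of Gsta3, and Gsta2 as one of Gsta5. Which of these close relatives a row stands for thus rests on the authors' annotation. Gsta1 and Gsta3 are printed below because the sequences before their starts are alike while the signs of their differences with all 6 libraries are not. For Gsta3 the first upstream sequence listed is used, and another listed for it is neither printed nor compared. Over 250 bases 62.4% were identical, and other alpha-class pairs had 40.8% to 56.8%. Capitals mark the longest run of bases in common, of 12.
Gsta1 (GRCr8 chr9:31216533-31216682, minus strand): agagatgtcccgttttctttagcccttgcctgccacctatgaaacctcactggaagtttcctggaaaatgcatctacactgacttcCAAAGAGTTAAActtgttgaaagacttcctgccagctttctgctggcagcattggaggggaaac
Gsta3 (GRCr8 chr9:31154839-31154988, plus strand): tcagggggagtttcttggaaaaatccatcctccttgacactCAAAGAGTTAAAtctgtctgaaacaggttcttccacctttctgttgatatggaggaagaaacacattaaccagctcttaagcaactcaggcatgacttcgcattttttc

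The mu class held the member with the smallest p of all 39. Mu-class enzymes conjugate epoxides and other electrophiles. Gstm3 had 368, 810.1 and 424 normalized reads across vehicle replicates 1 to 3, against 197, 87.9 and 163 across ginkgetin replicates 1 to 3. Every ginkgetin value lay below every vehicle value, and vehicle replicate 3 lay between the other vehicle libraries (limma log2 fold change -1.82 ± 0.4 SE with an adjusted p of 0.0951). The log2 fold change ran from -2.06 to -1.47 with 1 library left out. DESeq2 gave an adjusted p of 0.00309, and the adjusted p of all alternatives ran from 2.14e-06, with hepatocyte marker scaling and without vehicle replicate 3, to 0.282. Most markers of bile duct cells and of stellate cells were also lower with ginkgetin (12 of 12 and 12 of 13, medians -2.52 and -2.29). Without vehicle replicate 3 the bile duct markers ran from -3.86 to -0.79. Of the stellate cell markers, Acta2, Lox, Lrat, Lum and Rgs5 were then positive, from 0.28 to 1.54. The others ran from -4.23 to -0.30. Of all genes tested, 48.6% had a higher mean with all 6 libraries. The part of both marker sets in the value of Gstm3 was not tested.

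The other 5 mu-class genes had higher means. Gstm1, with the most normalized reads of the class, had 11337, 11628 and 3804 in the vehicle libraries, against 13028, 10364 and 17410.2 in the ginkgetin libraries (limma log2 fold change 0.74 ± 0.577 SE with an adjusted p of 0.481, and 0.21 without vehicle replicate 3). Gstm7 had 10117, 6066 and 2085 in the vehicle libraries, against 7089, 9016 and 11229 in the ginkgetin libraries (limma log2 fold change 0.83 ± 0.613 SE with an adjusted p of 0.459, and 0.19 without that library). In both, vehicle replicates 1 and 2 lay at or near the ginkgetin values, and vehicle replicate 3 lay apart. Gstm6l had 122, 54.9 and 34.4 in the vehicle libraries, against 123, 78.7 and 200.4 in the ginkgetin libraries (log2 fold change 1.01, and 0.60 without vehicle replicate 3), with overlap. Gstm4 was nearly level, at 0.050 and, without that library, -0.22, and Gstm6, with a mean of under 50 normalized reads, was at 0.77. The 150 bases before the starts of Sult1c2 and Gstm3, the members DESeq2 called in opposite directions, are given here with capitals for any of 6 motifs found in them on either strand.
Sult1c2 (GRCr8 chr9:7436831-7436980, plus strand): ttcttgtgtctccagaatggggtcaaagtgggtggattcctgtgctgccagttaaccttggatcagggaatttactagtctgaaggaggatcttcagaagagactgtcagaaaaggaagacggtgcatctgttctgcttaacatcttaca
Gstm3 (GRCr8 chr2:198300668-198300817, minus strand): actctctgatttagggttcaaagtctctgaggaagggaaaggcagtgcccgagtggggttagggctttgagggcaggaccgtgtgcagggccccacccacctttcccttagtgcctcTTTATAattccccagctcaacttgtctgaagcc

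Upstream sequences were found for 30 of the 39 members, 32 in all, and searched on both strands over 250 bases, with overlaps between motifs allowed. The TATA box TATAAA, found in Gstm3 above, was in 6 of 32 (18.8%, against 12.9% of all 33469 promoter sequences). The core of the antioxidant response element, TGACNNNGC, was in 3 (9.38%, against 10.1%), those of Gsta3, Gstm7 and Gstz1. The xenobiotic response core GCGTG was in 6 (18.8%, against 25.9%), the nuclear receptor half-site AGGTCA in 2 (6.25%, against 14.1%), the STAT pattern TTCNNNGAA in 5 (15.6%, against 7.67%) and the HNF1 half-site GTTAAT in 1 (3.13%, against 6.45%). None of the 6 was in the printed window of Sult1c2. These are counts of letters in short windows.

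In the other cytosolic GST classes, Gstt2 was higher with ginkgetin in all libraries and Gstt3 had a lower mean. Theta-class enzymes act on small halogenated molecules. Gstt2 had 231, 189 and 90.8 in the vehicle libraries, against 263, 537 and 351 in the ginkgetin libraries (limma log2 fold change 1.21 ± 0.408 SE with an adjusted p of 0.173, and 0.81 without vehicle replicate 3). Its groups were apart, though vehicle replicate 1 and ginkgetin replicate 1 were close. Gstt3 had 2587, 1528 and 1432 in the vehicle libraries, against 834, 751 and 2494 in the ginkgetin libraries (limma log2 fold change -0.62 ± 0.49 SE with an adjusted p of 0.489, and -0.78 without vehicle replicate 3), with ginkgetin replicate 3 among the highest libraries and replicates 1 and 2 the lowest. Gstt1, the third theta gene, was at 0.40 with overlap.

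Gstz1, which isomerizes maleylacetoacetate in tyrosine breakdown, had 5475, 3379.9 and 1022 in the vehicle libraries, against 6001, 5452 and 7079.6 in the ginkgetin libraries (limma log2 fold change 1.20 ± 0.601 SE with an adjusted p of 0.294, and 0.51 without vehicle replicate 3). It followed the library order of the hepatocyte markers in the vehicle group, as did many other members, among them Ugt2b35, Mgst1 and Gstt3. Gstk1, of mitochondria and peroxisomes, was at 0.52, and at -0.30 without vehicle replicate 3. Gsto1, an omega-class enzyme that reduces dehydroascorbate, was at 0.46, and its neighbour Gsto2, with 3.47 to 24.7 normalized reads, at 0.19. The groups overlapped in these 4 genes.

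The 3 membrane-bound transferases all had higher means. Mgst1, of the endoplasmic reticulum and outer mitochondrial membrane, had 39944, 17265 and 7416 in the vehicle libraries, against 39372, 32412 and 45803 in the ginkgetin libraries (limma log2 fold change 1.17 ± 0.728 SE with an adjusted p of 0.383, and 0.56 without vehicle replicate 3). Vehicle replicate 1 lay inside the ginkgetin range, and vehicle replicates 2 and 3 below it. Mgst2, which can form leukotrienes, had 724, 746 and 419.8 in the vehicle libraries, against 1278, 671 and 1368 in the ginkgetin libraries (limma log2 fold change 0.79 ± 0.358 SE with an adjusted p of 0.259, and 0.52 without that library). Ginkgetin replicate 2 lay among the vehicle libraries. Mgst3, a related peroxidase, had 273, 249 and 82.3 in the vehicle libraries, against 317, 304 and 392 in the ginkgetin libraries (limma log2 fold change 0.92 ± 0.445 SE with an adjusted p of 0.282, and 0.37 without that library), with the groups apart.

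Of the N-acetyltransferases, which acetylate arylamines, Nat2 separated the groups. It had 32.03, 24.95 and 23.9 in the vehicle libraries, against 48.6, 47.4 and 64.3 in the ginkgetin libraries (limma log2 fold change 0.96 ± 0.394 SE with an adjusted p of 0.228). All 3 vehicle libraries were alike in normalized reads, so the value was 0.88 without vehicle replicate 3 and ran from 0.82 to 1.08 with any 1 library left out. These values rest on 27, 30 and 39 reads in the vehicle libraries, against 44, 41 and 52 in the ginkgetin libraries. After the scaling to hepatocyte markers described below, the groups of Nat2 overlapped and its log2 fold change was -0.17. Nat1 had 483, 239.5 and 203 in the vehicle libraries, against 410.2, 404 and 411 in the ginkgetin libraries (limma log2 fold change 0.51 ± 0.329 SE with an adjusted p of 0.401, and 0.26 without vehicle replicate 3), where vehicle replicate 1 was the highest library. Nat1 and Nat2 overlap in the RefSeq table, so reads of one may have been given to the other. Nat3 had 0 to 2.21 normalized reads, too few for a difference to be detectable.

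Dividing each library by the level of its hepatocyte markers, so that the median of the 22 markers was equal in all 6, set the members against other hepatocyte transcripts. The shift was 1.99 log2 units for vehicle replicate 3 and between -0.75 and 0.14 for the others. It moved the median of all genes tested to -1.14. The median of the members became -0.32, with 14 higher and 25 lower (8.07% of all genes had a higher mean), and 22 members turned sign. Sult1c3 (1.30), Sult1c2 (1.04), Ugt2b10 (1.02) and Sult1c2a (0.96) had the largest values on the higher side, none past the threshold in limma. With this scaling Ugt2b10 was the only member that was higher without overlap (2.56%, against 1.2% of all genes), and 6 were lower without overlap (15.4%, against 29.1%). Gstm3 fell by 2.97 on the log2 scale and passed the threshold (limma adjusted p = 0.0213, where 5.38% of all genes passed), and Gsta3 (-1.91) and Gstt3 (-1.77) followed without passing. Leaving out vehicle replicate 3 as well, 4 members passed, where 7.52% of all genes did: Gsta3, Gstm3 and Gstt3 lower and Sult1c3 higher. The most read members lay near 0 or below it, with Mgst1 at 0.015, Gsta1 at 0.063, Ugt2b37 at -0.22, Sult1a1 at -0.32, Gstm1 at -0.41 and Ugt1a5 at -0.60.

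**Figure D4:**
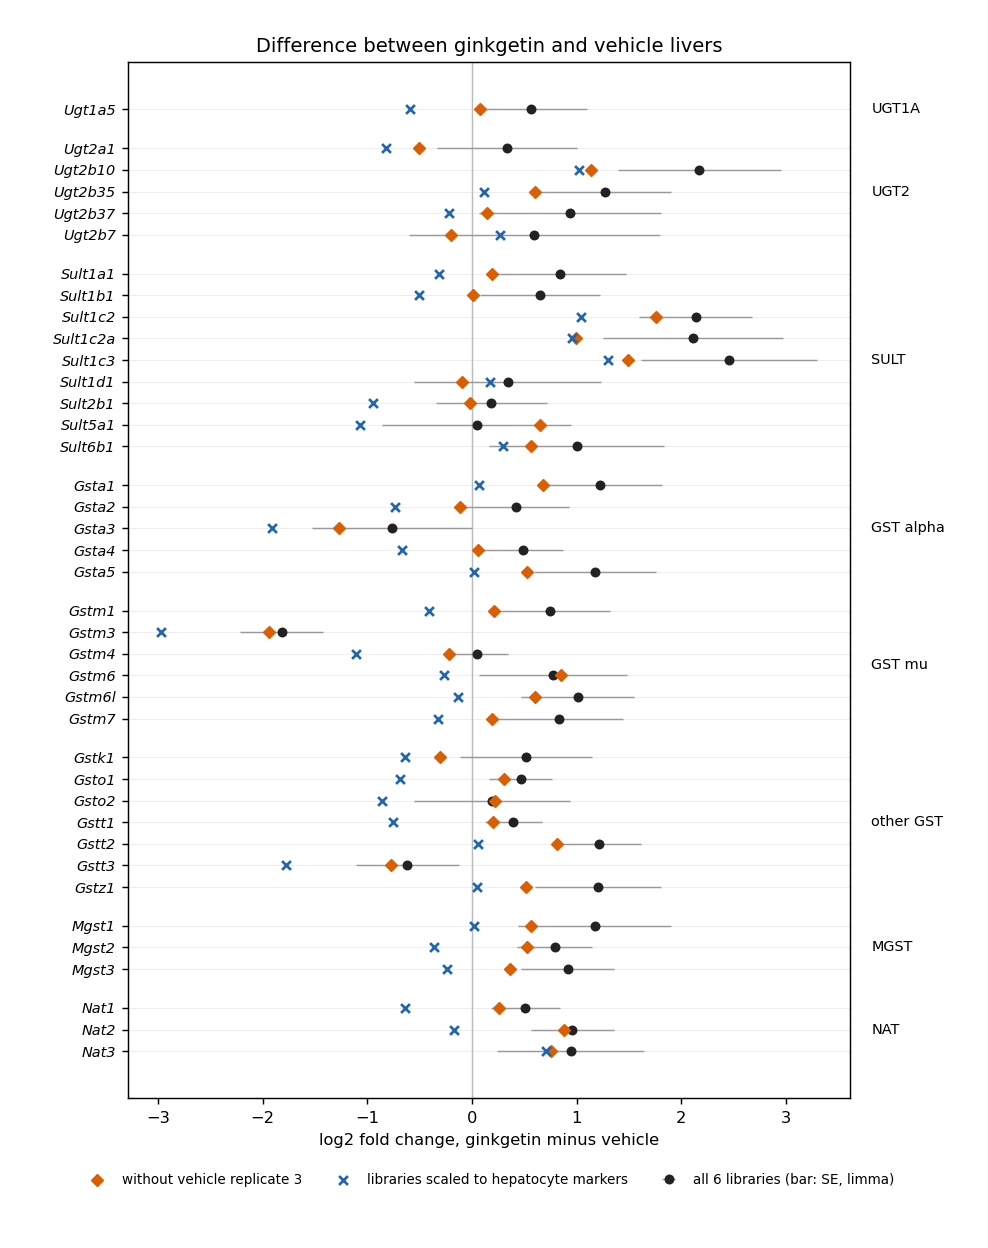
Log2 fold changes of the 39 members, ginkgetin minus vehicle. Black points with bars are the values and SE with all 6 libraries, orange diamonds those without vehicle replicate 3, and blue crosses those after scaling to the hepatocyte markers. The crosses of the Sult1c genes and Ugt2b10 stay near 1, those of most members lie between -1 and 0.3, and that of Gstm3 lies at -2.97.

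Genes that supply the donors, remove the conjugates and regulate the enzymes were read from the same fit, and none passed the adjusted threshold. Their counts stand beside the shares of all genes tested: 48.6% with a higher mean, 7.0% higher and 13.2% lower below an unadjusted 0.05, and 11.4% higher without overlap. Of 7 genes for the supply of UDP-glucuronic acid, 6 had a higher mean (median 0.68), and 3 were higher and 0 lower below an unadjusted 0.05. Ugdh, which makes UDP-glucuronic acid, had 773, 606 and 626 in the vehicle libraries, against 1379.8, 1924 and 2289 in the ginkgetin libraries (limma log2 fold change 1.46 ± 0.273 SE with an adjusted p of 0.0804). The vehicle libraries were alike and all lay below the ginkgetin libraries, and without vehicle replicate 3 the value was 1.41. Ugp2, which makes its precursor UDP-glucose, had 2368, 1779.8 and 809.6 in the vehicle libraries, against 4376, 5142 and 5104 in the ginkgetin libraries (limma log2 fold change 1.69 ± 0.432 SE with an adjusted p of 0.113). Of 7 genes for the supply and turnover of PAPS, 4 were higher and 3 lower on average (median 0.85), with 2 and 1 at an unadjusted p of 0.05. Papss1, a PAPS synthase, had 174, 234 and 521 in the vehicle libraries, against 130.5, 83.3 and 75.5 in the ginkgetin libraries (limma log2 fold change -1.55 ± 0.437 SE with an adjusted p of 0.129), with the groups apart and vehicle replicate 3 the highest. Bpnt1, which clears the spent donor, was at 0.85 and the sulfate carrier Slc26a1 at 1.48, or 0.67 without vehicle replicate 3.

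Of 14 tested genes for glutathione, 9 had a higher and 5 a lower mean (median 0.14), with 2 higher and 4 lower below an unadjusted 0.05. Gclm, the modifier subunit of the limiting synthetic enzyme, had 562, 401 and 427 in the vehicle libraries, against 803, 1514 and 1027 in the ginkgetin libraries (limma log2 fold change 1.23 ± 0.289 SE with an adjusted p of 0.101), and the groups were apart. Ggt1, which breaks glutathione down outside the cell and is a bile duct enzyme in adult liver, had 84.2, 96.5 and 74.3 in the vehicle libraries, against 36.5, 16.2 and 8.66 in the ginkgetin libraries (limma log2 fold change -2.22 ± 0.547 SE with an adjusted p of 0.109), and Ggt7 was at -2.55. Of 15 tested methyl- and amino acid-conjugating enzymes, 14 had a higher mean (median 1.21), 5 of them at an unadjusted p of 0.05, and 7 without overlap. Glyat, glycine N-acyltransferase, had 2103, 1149 and 547 in the vehicle libraries, against 4798, 4821 and 5197 in the ginkgetin libraries (limma log2 fold change 2.17 ± 0.477 SE with an adjusted p of 0.0951), and the related Glyatl1 and Glyatl2 were at 2.28 and 1.76. Without vehicle replicate 3 these 3, which had the smallest p of their list, were at 1.67, 1.91 and 1.29.

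Of 11 carriers of conjugates, 9 had a higher mean (median 1.22), with 4 higher and 1 lower below an unadjusted 0.05. Abcc2, which exports conjugates into bile, had 1858, 1193 and 204 in the vehicle libraries, against 2836, 6164 and 4873 in the ginkgetin libraries (limma log2 fold change 2.52 ± 0.763 SE with an adjusted p of 0.145, and 1.56 without vehicle replicate 3). Abcc3, which exports them back into blood, had 97.3, 358 and 177 in the vehicle libraries, against 79.6, 57.8 and 30.9 in the ginkgetin libraries (limma log2 fold change -1.79 ± 0.543 SE with an adjusted p of 0.145), so the biliary and the basolateral pump lay on opposite sides, each with its groups apart. Slc22a8, an organic anion carrier, was at 2.89 with overlap, and at 2.07 without vehicle replicate 3. Of 7 enzymes that cleave conjugates or related bonds, 4 were higher and 3 lower (median 0.35), with 0 and 1 at an unadjusted p of 0.05. The lower one was Naaa (-1.52), an amidase, Sts, steroid sulfatase, was at 1.05 and Arsa at 0.35. Of 18 regulators of phase II genes, 16 had a higher mean (median 0.94), with 5 higher and 1 lower below an unadjusted 0.05. The list is called transcription factors below, though Keap1, counted in it, is not one. Nr1i3, the constitutive androstane receptor, had 1356, 391 and 396 in the vehicle libraries, against 2196, 1924 and 2169 in the ginkgetin libraries (limma log2 fold change 1.81 ± 0.471 SE with an adjusted p of 0.115), and Rxra, its partner, had 304, 295 and 257 in the vehicle libraries, against 734, 1926 and 784 in the ginkgetin libraries (limma log2 fold change 1.86 ± 0.37 SE with an adjusted p of 0.0886). Both had their groups apart, and without vehicle replicate 3 they were at 1.52 and 1.79. Maff, a small Maf protein, was on the other side at -1.15.

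The medians of these lists without vehicle replicate 3 were 0.32 for UDP-glucuronic acid supply, 0.36 for PAPS, 0.14 for glutathione, 0.58 for methyl and amino acid conjugation, 0.58 for carriers, -0.18 for deconjugation and 0.46 for transcription factors. After scaling to the hepatocyte markers they were -0.47 for UDP-glucuronic acid supply, -0.30 for PAPS, -1.01 for glutathione, 0.056 for methyl and amino acid conjugation, 0.061 for carriers, -0.80 for deconjugation and -0.22 for transcription factors, where the median of all genes was -1.14, and 6 of the 18 transcription factors had a higher mean.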

How the data were processed

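Gene expression was measured by RNA sequencing in 6 rat liver libraries, prepared with a SMARTER kit per the labels' protocols and processed against mRatBN7.2 per the submitters' processing notes. Aligner, counting tool, annotation and strandedness were not given in the sources used here. The deposited values are a signal of 0 or above, a normalized read count per gene. In every library 99.7% were multiples of its lowest value above 0 to within 0.02 of a whole number, so that reads could be recovered. Columns named for ginkgetin were matched by name and number. The other 3 carry letters that are not in the labels and were taken as vehicle replicates 1 to 3, since vehicle is the only other group, and every direction rests on this. All pairs of libraries differed beyond sampling noise.

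Groups were tested in R 4.3.3 by limma 3.58.1 with trend and robust moderation on log2(value + 1). It covered the 14639 genes that reached 1 in no fewer than 3 libraries, with Benjamini-Hochberg adjustment over all of them at 0.05. Alternatives were edgeR 4.0.16 and DESeq2 1.42.0 on recovered reads, other pseudocounts, filters and scalings, a replicate block and leaving out each library. The procedure was tested on simulated data. Hepatocyte scaling without vehicle replicate 3 was added after seeing the data. The members and gene lists were chosen with earlier results of these data known, so no set test was made. Per family, values per library are given for the member with the most reads, the 2 with the smallest p in each direction, and any that goes against its family without overlap. Other lists are represented by the 3 genes with the smallest p, except for 1 gene that is not reported here. Promoter sequences are from RefSeq, GRCr8.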

Additional observations from a re-analysis of the deposited data

How the results depend on the processing

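Leaving out 1 library gave 0 to 696 genes and 0 to 3 members past the adjusted limma threshold, against 2 genes and 0 members with all 6; the higher counts came without vehicle replicate 1. The median log2 fold change ran from 0.26 to 1.08 over the members, 0.077 to 0.88 for UGT1A, 0.15 to 1.52 for UGT2, 0.56 to 1.31 for SULT, 0.062 to 1.02 for GST alpha, 0.20 to 1.07 for GST mu, 0.22 to 0.68 for other GST, 0.52 to 1.22 for MGST, 0.75 to 1.08 for NAT. Gsta3 ran from -1.36 to 0.069, and turned sign without vehicle replicate 2, and 7 members turned sign without vehicle replicate 3. Related lists had 0 to 3 genes past the threshold, with highest values of 2 for UDP-glucuronic acid supply, 0 for PAPS, 1 for glutathione, 3 for methyl and amino acid conjugation, 0 for deconjugation, 3 for carriers, 3 for transcription factors. Hepatocyte marker scaling gave 787 genes and 1 member past the threshold and medians of -0.32 over the members, -0.60 for UGT1A, 0.12 for UGT2, 0.18 for SULT, -0.67 for GST alpha, -0.37 for GST mu, -0.69 for other GST, -0.24 for MGST, -0.17 for NAT. It turned the sign of 22 members, of which those given by library are Ugt1a5 -0.60, Ugt2a1 -0.82, Ugt2b37 -0.22, Sult1a1 -0.32, Gstm1 -0.41, Gstm6l -0.13, Gstm7 -0.33, Mgst2 -0.37, Mgst3 -0.24, Nat1 -0.64, Nat2 -0.17. It called 3 for glutathione, 1 for carriers. With vehicle replicate 3 also left out, 1101 genes and 4 members passed (Gsta3, Gstm3 and Gstt3 lower, Sult1c3 higher), with medians of -0.17 over the members, -0.37 for UGT1A, -0.30 for UGT2, 0.21 for SULT, -0.39 for GST alpha, -0.25 for GST mu, -0.17 for other GST, 0.071 for MGST, 0.44 for NAT. Signs turned among the same members for Ugt1a5 -0.37, Ugt2a1 -0.96, Ugt2b37 -0.30, Sult1a1 -0.26, Gstm1 -0.24, Gstm7 -0.26, Mgst3 -0.084, Nat1 -0.19. This setting called 1 for PAPS, 3 for glutathione, 2 for methyl and amino acid conjugation, 3 for carriers, 3 for transcription factors. DESeq2 called 1375 genes, 2 members and, of the related lists, 2 for UDP-glucuronic acid supply, 1 for PAPS, 4 for glutathione, 3 for methyl and amino acid conjugation, 1 for deconjugation, 2 for carriers, 3 for transcription factors; edgeR called 0 genes, though 789 were higher and 2126 lower below an unadjusted 0.05. Equal library totals called 94 genes, moved the median of all genes to -0.53, left 25 members higher and 14 lower, and put the members at 0.31, GST alpha at -0.037, other GST at -0.057, NAT at 0.45 and Nat1 at -0.0084. Quantile normalization called 1 gene and put NAT at 1.36 and Ugt1a5 at -0.022. A pseudocount of 5 called 5 genes and put NAT at 0.50, and the log2 ratio of family sums put NAT at 0.46. Without trend and robust moderation 27 genes passed. The cause of these shifts was not tested. With the replicate number as a block 0 genes and 0 members passed. Same-numbered libraries deviated from their group means with correlations of -0.16, 0.029, -0.21 for numbers 1 to 3, and libraries of unlike number with -0.10 to 0.20. With 3 libraries per group, these correlations cannot settle whether the numbers pair the samples. Other filters and a pseudocount of 0.5 kept every count past the adjusted threshold within 1.5 times. Below an unadjusted 0.05, PAPS genes on the higher side went from 2 to 1 with a filter of 10 or a pseudocount of 0.5, and glutathione genes from 2 to 1 with a filter of 10 or none. Leaving 2 libraries in a group, and the few reads of Sult1c2, Nat2 and Gsto2, limit what can be detected.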
